A study of Mus musculus with 18 samples.

Results

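Type IV collagen is the network-forming collagen of basement membranes, and mice make its chains from 6 genes, Col4a1 to Col4a6. The 6 genes were chosen by their names, as the whole Col4a family, out of 55335 genes in a table of read counts from 12 mouse liver tumour libraries, and all 6 passed the filter on low counts that left 17013 genes for testing. No measured value decided which gene belongs to the family, but the family was picked as a subject with earlier results of these libraries known, so every adjusted p below describes the libraries and is no independent evidence.

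The libraries came from 2 tumour models with 3 libraries in each of 4 groups. In the DEN+CCl4 model, 14-day-old mice were injected with 1 mg/kg of N-nitrosodiethylamine (DEN), a liver carcinogen, and later given carbon tetrachloride (CCl4, 0.2 ml/kg), a liver toxin, 2 times a week from 8 weeks of age for 12 to 16 weeks. In the N-Ras+AKT model, 20 µg each of plasmids carrying NRasV12 and myr-AKT and 1.6 µg of Sleeping Beauty transposase were delivered to the liver by hydrodynamic tail vein injection. All 4 groups carried Rosa26DTA/+, an allele from which Cre recombinase releases diphtheria toxin A. The depletion groups were Prom1C-L/+;Rosa26DTA/+, in which the Prom1 locus drives a tamoxifen-dependent Cre (CreERT2, with LacZ), so tamoxifen kills cells in which Prom1, a membrane glycoprotein gene, is active. For the controls, the design text names Prom1+/+;Rosa26DTA/+ littermates and also a vehicle of olive oil, while the strain label gives the knock-in for every library. It is thus unclear if the controls differed by genotype, by treatment or by both. Tamoxifen was given in repeated doses of 4 mg, and the wait from the final dose to tissue collection was 16 days in DEN+CCl4 and 6 in N-Ras+AKT, so the models also differ in that interval. The labels do not tie each library to a separate animal, and p-values measure the spread between these libraries.

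Collagen IV chains act in trimers. Those from Col4a1 and Col4a2 join in the trimer found in nearly every basement membrane. Those from Col4a3, Col4a4 and Col4a5 form the trimer of the mature kidney filter, the lung alveolus and the inner ear, whose loss causes Alport syndrome in people. Those from Col4a5 and Col4a6 form a trimer known from smooth muscle and Bowman's capsule. In healthy liver, basement membranes underlie bile ducts and larger vessels, while the sinusoids have no continuous one.

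The 6 genes lie in 3 pairs that are transcribed away from each other (mm10, GENCODE M21). Col4a1 (chromosome 8, 11198423 to 11312826, minus strand) and Col4a2 (11312805 to 11449287, plus strand) overlap by 22 bases of their first exons. Col4a4 (chromosome 1, 82448423 to 82586849, minus strand) and Col4a3 (82586921 to 82722059, plus strand) leave 71 bases between their starts. Col4a6 (chromosome X, 141165403 to 141474076, minus strand) and Col4a5 (141475385 to 141689234, plus strand) start 1308 bases apart. The start regions are shown because the report compares partners that start near each other. The Col4a5 and Col4a6 windows do not overlap. The windows hold 250 bases before to 50 after the start in RefSeq (GRCm38.p6), read 5′ to 3′ on the gene's own strand, and 5 of the 6 genes had one. Capitals mark the 22 shared first-exon bases in the Col4a1 window (chr8:11312777-11313076), the 71 bases between the starts in the Col4a4 window (chr1:82586800-82587099), and motif matches in the Col4a5 (chrX:141475169-141475468) and Col4a6 (chrX:141474027-141474326) windows.
Col4a1: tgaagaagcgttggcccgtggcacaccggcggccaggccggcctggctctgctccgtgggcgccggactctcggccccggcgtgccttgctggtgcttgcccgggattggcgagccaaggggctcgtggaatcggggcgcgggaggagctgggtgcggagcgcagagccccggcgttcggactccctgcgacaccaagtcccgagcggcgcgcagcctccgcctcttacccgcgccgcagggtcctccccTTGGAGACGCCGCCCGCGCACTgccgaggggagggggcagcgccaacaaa
Col4a4: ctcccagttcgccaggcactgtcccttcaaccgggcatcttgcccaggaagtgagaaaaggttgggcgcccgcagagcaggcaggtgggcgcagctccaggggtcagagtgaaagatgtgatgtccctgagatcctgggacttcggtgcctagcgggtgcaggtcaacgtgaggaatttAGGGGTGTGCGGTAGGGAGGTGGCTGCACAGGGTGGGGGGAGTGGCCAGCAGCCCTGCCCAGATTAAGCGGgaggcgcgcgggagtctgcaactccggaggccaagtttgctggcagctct
Col4a5: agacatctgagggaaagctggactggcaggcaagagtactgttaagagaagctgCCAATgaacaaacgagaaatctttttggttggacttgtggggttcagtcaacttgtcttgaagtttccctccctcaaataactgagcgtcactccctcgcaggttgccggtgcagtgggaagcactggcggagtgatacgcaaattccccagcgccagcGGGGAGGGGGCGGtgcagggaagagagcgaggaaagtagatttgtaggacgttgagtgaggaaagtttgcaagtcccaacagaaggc
Col4a6: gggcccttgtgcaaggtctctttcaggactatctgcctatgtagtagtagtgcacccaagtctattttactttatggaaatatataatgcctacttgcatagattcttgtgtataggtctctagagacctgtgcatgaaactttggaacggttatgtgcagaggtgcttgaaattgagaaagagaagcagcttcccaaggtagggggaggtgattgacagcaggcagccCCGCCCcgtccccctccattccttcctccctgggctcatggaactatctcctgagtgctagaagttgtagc

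The windows differed in base composition. The Col4a2 window (chr8:11312555-11312854) overlaps the Col4a1 window only in a minor part, on the other strand. G and C made up 74.0% for Col4a1, 73.7% for Col4a2, 63.3% for Col4a4, 52.7% for Col4a5 and 48.3% for Col4a6, against a median of 52.7% over 32817 mouse promoter windows. The same windows held 37, 33, 14, 11 and 3 CpG dinucleotides, against a median of 7. Searched on both strands, TATAAA (13.6% of all windows) was in none of the 5, and CCAAT (37.4%), GGGCGG (35.6%) and CCCTCCCC (10.8%) were each in the Col4a1, Col4a2 and Col4a5 windows. In the Col4a5 window the GGGCGG and CCCTCCCC matches overlap. The GGGCGG and CCCTCCCC matches of the Col4a1 window lie in bases that the Col4a2 window also covers. Each is thus the same site as a Col4a2 match, read on the other strand, and not a separate occurrence. The Col4a6 window held GGGCGG alone of these, and the Col4a4 window held none.

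In their coding sequence the odd-numbered genes resemble each other, as do the even-numbered ones, more than partners of a pair do. Over the last 600 coding bases, which encode most of the globular end domain, Col4a1, Col4a3 and Col4a5 were identical to each other at 67.8% to 75.7% of aligned positions, and Col4a2, Col4a4 and Col4a6 at 67.4% to 72.9%. Across these sets identity was 60.3% to 64.4%, with 64.4% for Col4a1 and Col4a2, 60.8% for Col4a3 and Col4a4, and 63.8% for Col4a5 and Col4a6. Glycine codons, which recur through a collagen helix, made up 27.5% to 28.6% of codons in the 6 genes. The longest stretch shared letter for letter between transcripts of any 2 members was 26 bases, between Col4a1 and Col4a5.

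Libraries held 31306617 to 48055812 counts. Each library's distance from the mean of the other 2 of its group, the root mean square of log2 differences over the genes tested, was 0.492 to 0.589 in 10 libraries, 0.774 in DEN+CCl4 depletion 6 and 0.700 in N-Ras+AKT depletion 17. Prom1, the gene whose cells were targeted, lay at 60.1, 76.7 and 48.9 CPM (read counts scaled to the same TMM-adjusted library size) in DEN+CCl4 controls 7, 8 and 13, and at 17.5, 40.0 and 35.7 in depletion libraries 6, 9 and 10 (edgeR quasi-likelihood test, log2 −1.0 ± 0.57 SE, adjusted p = 0.381). In N-Ras+AKT it lay at 45.4, 59.2 and 78.3 CPM in controls 3, 10 and 15 and at 5.81, 16.5 and 2.17 in depletion libraries 6, 11 and 17 (log2 −2.90 ± 0.61, adjusted p = 0.00953). The libraries that stand apart thus also held the least Prom1 of their groups.

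The largest difference in the family was between the models, in Col4a3 and Col4a4. Col4a3 lay at 200.9, 191.6 and 184 CPM in DEN+CCl4 controls 7, 8 and 13, at 95.2, 92.5 and 121 after depletion (6, 9 and 10), at 0.941, 1.51 and 1.52 in N-Ras+AKT controls 3, 10 and 15, and at 2.70, 0.749 and 0.338 after depletion there (6, 11 and 17). Every DEN+CCl4 library was thus far above every N-Ras+AKT library. Col4a4 followed, at 46.5, 43.9 and 38.6 CPM in DEN+CCl4 controls and 21.2, 17.5 and 18.2 after depletion, against 0.479, 0.957 and 0.606 in N-Ras+AKT controls and 0.789, 0.264 and 0.180 after depletion. In N-Ras+AKT these levels rested on 15 to 113 counts for Col4a3 and 8 to 52 for Col4a4 per library, against 2733 to 6947 and 591 to 1593 in DEN+CCl4.

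Between control tumours, Col4a3 was 146-fold lower in N-Ras+AKT than in DEN+CCl4 (log2 −7.19 ± 0.58 SE, edgeR adjusted p = 2.28e-05) and Col4a4 63.1-fold lower (log2 −5.98 ± 0.39, adjusted p = 6.12e-06). These are 2 of 6 members, where 19.8% of all genes tested were called lower. After depletion the folds were 82.2 for Col4a3 (log2 −6.36 ± 0.57, adjusted p = 4.32e-05) and 46.5 for Col4a4 (log2 −5.54 ± 0.40, adjusted p = 1.02e-05). Under each alternative run, both genes kept their call in both comparisons. In bulk tissue, fewer cells of a type and less RNA per cell cannot be told apart. Markers of kidney and lung epithelium, where Col4a3 and Col4a4 are best known, are set beside these levels, and 3 of 10 passed the filter on low counts. Aqp2 and Scgb1a1 were at 0 in all 12 libraries, Umod, Slc12a1 and Sftpc were at 0 in 11 of 12, and Nphs1 reached at most 0.313 CPM. The list's summed level was 12.6 to 19.4 CPM in DEN+CCl4 controls and 14.1 to 20.7 in N-Ras+AKT controls, most of it Podxl, which endothelium also expresses. Endothelial markers summed to 533 to 578 CPM in DEN+CCl4 controls and 173 to 247 in N-Ras+AKT controls, and 10 of 17 were called lower. Hepatocyte markers summed to 193600 to 252300 and to 72780 to 77780 CPM, with 9 of 12 called lower. The part of any of these cell types in the Col4a3 and Col4a4 levels was not tested.

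**Figure D1:**
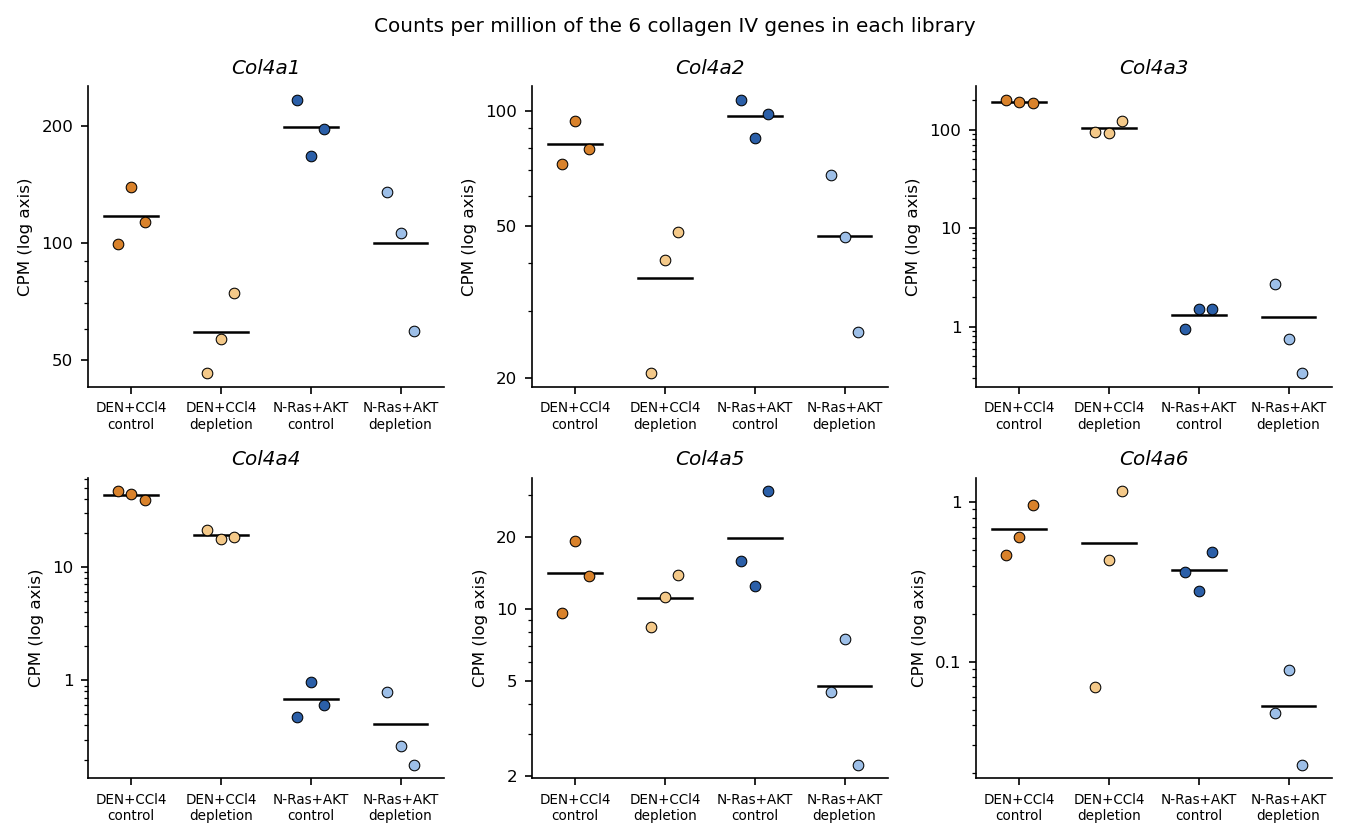
CPM (log axis) of each collagen IV gene in each of the 12 libraries, by group, with points for libraries and a line at the group mean. Col4a3 and Col4a4 lie at 17.5 CPM or more in every DEN+CCl4 library and at 2.70 or less in every N-Ras+AKT library.

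Col4a1 and Col4a2, the pair of nearly every basement membrane, differed far less between the models. Col4a1 lay at 99.9, 139.7 and 113 CPM in DEN+CCl4 controls and at 234, 168 and 196 in N-Ras+AKT controls, with no overlap. It was called 1.70-fold higher in N-Ras+AKT (log2 0.76 ± 0.27, adjusted p = 0.0435), 1 of 6 members where 20.8% of all genes tested were called higher. That call is fragile: it ended without DEN+CCl4 control 7 or 13 (adjusted p = 0.140 and 0.114), without DEN+CCl4 depletion 9 (0.0583), without N-Ras+AKT control 3 or 15 (0.135 and 0.0785) and without N-Ras+AKT depletion 11 (0.0577). Col4a2 lay at 72.8, 93.9 and 79.5 CPM against 107, 85.1 and 98.0, which overlap (log2 0.24 ± 0.34, adjusted p = 0.608). After depletion the differences were 0.77 ± 0.27 for Col4a1 (adjusted p = 0.0503) and 0.36 ± 0.34 for Col4a2 (0.441).

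Per kilobase of exon, which lets genes be compared, the family's make-up differed more between the models than its sum did. The 6 genes together gave 53.7 ± 4.8 CPM per kilobase (SD, n = 3) in DEN+CCl4 controls and 44.5 ± 6.4 in N-Ras+AKT controls, without overlap. After depletion the sums were 27.3 ± 5.7 in DEN+CCl4 and 21.4 ± 8.6 in N-Ras+AKT, each below all controls of its model. Col4a3 and Col4a4 held 43.7% ± 4.7 of the family sum in DEN+CCl4 controls, 45.1% ± 6.1 after depletion, 0.459% ± 0.183 in N-Ras+AKT controls and 0.677% ± 0.430 after depletion. Col4a1 and Col4a2 held 52.3% ± 3.6, 48.6% ± 5.6, 92.9% ± 3.0 and 96.0% ± 1.2 in the same order. Col4a5 and Col4a6 held 4.04% ± 1.01, 6.28% ± 0.50, 6.66% ± 3.04 and 3.34% ± 1.46.

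**Figure D2:**
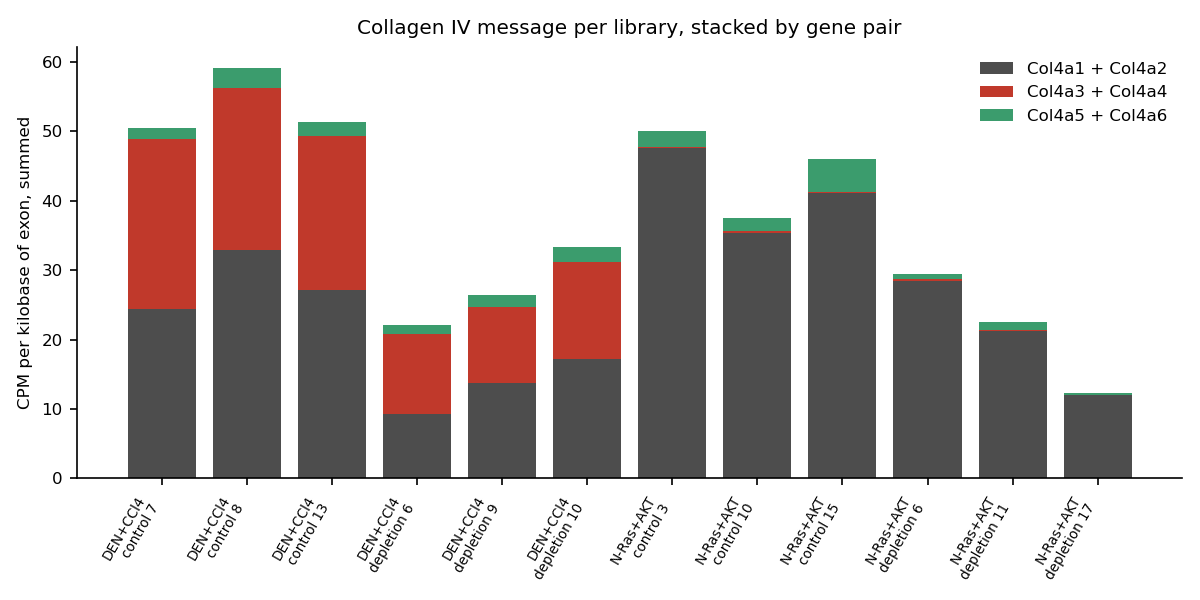
Summed CPM per kilobase of exon of the 6 genes in each library, stacked by head-to-head pair. Col4a3 and Col4a4 hold 39.5% to 52.2% of the bar in each DEN+CCl4 library and 0.278% to 1.17% in each N-Ras+AKT library.

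In DEN+CCl4 controls Col4a3 was the most abundant member per kilobase, at 18.5 to 20.2 CPM per kilobase, ahead of Col4a1 at 13.4 to 18.7 and Col4a2 at 11.0 to 14.2. Neighbours among these 3 overlapped. Col4a4 (3.64 to 4.39), Col4a5 (1.44 to 2.86) and Col4a6 (0.0581 to 0.120) followed without overlap. After depletion the order of the means was the same, and only Col4a2 and Col4a4, and Col4a5 and Col4a6, were neighbours without overlap. In N-Ras+AKT controls the order was Col4a1 (22.5 to 31.4), Col4a2 (12.9 to 16.2), Col4a5 (1.85 to 4.62), Col4a3 (0.0944 to 0.152), Col4a4 (0.0451 to 0.0902) and Col4a6 (0.0346 to 0.0608), and only the last 2 neighbours overlapped. After depletion this order was kept, with overlap between Col4a1 and Col4a2 and between Col4a3 and Col4a4.

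Col4a1 and Col4a2 were lower after depletion in every N-Ras+AKT and DEN+CCl4 library than in any control of that model, and were called in N-Ras+AKT. There, Col4a1 lay at 234, 168 and 196 CPM in controls 3, 10 and 15 and at 135, 106 and 59.6 in depletion libraries 6, 11 and 17. All 3 depletion libraries were below all controls, and Col4a1 fell by 0.99 ± 0.27 on the log2 scale (edgeR adjusted p = 0.0245). Col4a2 lay at 107, 85.1 and 98.0 CPM against 68.1, 46.7 and 26.4, again without overlap, and fell by 1.04 ± 0.34 (adjusted p = 0.0486). Depletion 17 was the lowest library for both. With control 3 left out Col4a1 was no longer called (adjusted p = 0.0858), nor with control 15 (0.0590) or depletion 17 (log2 −0.73, 0.0615) left out, and the call of Col4a2 ended in 9 of the 12 fits with 1 library left out (adjusted p up to 0.138).

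Col4a5, whose chain joins those of Col4a3 and Col4a4 in one trimer and that of Col4a6 in another, lay at 15.8, 12.4 and 31.0 CPM in N-Ras+AKT controls and at 4.49, 7.49 and 2.23 after depletion, all below the lowest control, and fell by 2.06 ± 0.47 on the log2 scale (edgeR adjusted p = 0.0124). It stayed called in all 12 fits that drop a single library (adjusted p up to 0.0430). Control 15 was the highest of its group. Col4a6, its partner, was near the limit of counting, at 22, 15 and 24 counts in controls and 2, 4 and 1 after depletion (0.363, 0.276 and 0.485 CPM against 0.0478, 0.0881 and 0.0226). Summed counts were 61 and 7, a ratio of 6.97 after scaling for the groups' TMM-adjusted library sizes (95% exact interval 3.19 to 18.1 for counting error only), and the fit gave log2 −2.75 ± 0.85 (adjusted p = 0.0362). Leaving out control 3, control 15, depletion 6 or depletion 17 ended the Col4a6 call (adjusted p = 0.0747 to 0.130).

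Col4a3 (log2 −0.07 ± 0.54, adjusted p = 0.938) and Col4a4 (−0.74 ± 0.43, 0.236) overlapped between the N-Ras+AKT groups. Depletion 6 was the highest library for Col4a3, and without it both genes were called lower (log2 −1.26 and −1.59, adjusted p = 0.0243 and 0.0135). In all, 4 of 6 members were called lower in N-Ras+AKT, against 10.8% of all genes tested, and the same 4 had all depletion libraries below all controls, against 21.5% of genes. The number called was 1 without control 3, control 15 or depletion 17, and 4 without both libraries that stand apart, at log2 −0.72 for Col4a1 (adjusted p = 0.0400), −0.75 for Col4a2 (0.0240), −1.72 for Col4a5 (0.0415) and −2.40 for Col4a6 (0.0413). Calls over all genes, in either direction, also fell, from 4027 of 17013 to 2257 of 17447 without control 3 and 2225 of 17460 without control 15.

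In DEN+CCl4 no member was called by edgeR, where 0.370% of all genes tested were. An unadjusted p under 0.05 was reached by 3 members, DESeq2 called 3 (against 6.27% of genes) and limma voom 1 (against 71 of 17013 genes). Col4a1 lay at 99.9, 139.7 and 113 CPM in controls 7, 8 and 13 and at 46.3, 56.6 and 74.3 in depletion libraries 6, 9 and 10 (log2 −0.99 ± 0.28, edgeR adjusted p = 0.0994, DESeq2 0.0140). Col4a2 lay at 72.8, 93.9 and 79.5 against 20.7, 40.7 and 48.2 (log2 −1.17 ± 0.34, 0.119 and 0.0158). Depletion 6, which stands apart, was the lowest of both. Without it and N-Ras+AKT depletion 17 they differed by −0.84 and −0.88 (adjusted p = 0.138 and 0.0885), Col4a3 by −0.84 and Col4a4 by −1.26, and no member was called. For Col4a4 the values given above differed by log2 −1.18 ± 0.30 (0.0875 and 0.00636) and for Col4a3 by −0.90 ± 0.44 (edgeR adjusted p = 0.303). In these 4 genes all depletion libraries were below all controls, 4 of 6 members where 16.0% of genes were. The edgeR call of Col4a4 alone appeared in a fit without N-Ras+AKT depletion 6 (adjusted p = 0.0449).

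Col4a5 and Col4a6 overlapped between the DEN+CCl4 groups. Col4a5 lay at 9.65, 19.2 and 13.7 CPM in controls and 8.43, 11.2 and 13.8 after depletion (log2 −0.35 ± 0.45, adjusted p = 0.727). Col4a6 lay at 0.463, 0.607 and 0.955 CPM against 0.0696, 0.431 and 1.17, with the lowest and the highest library both in the depletion group (log2 −0.27 ± 0.67, adjusted p = 0.872).

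**Figure D3:**
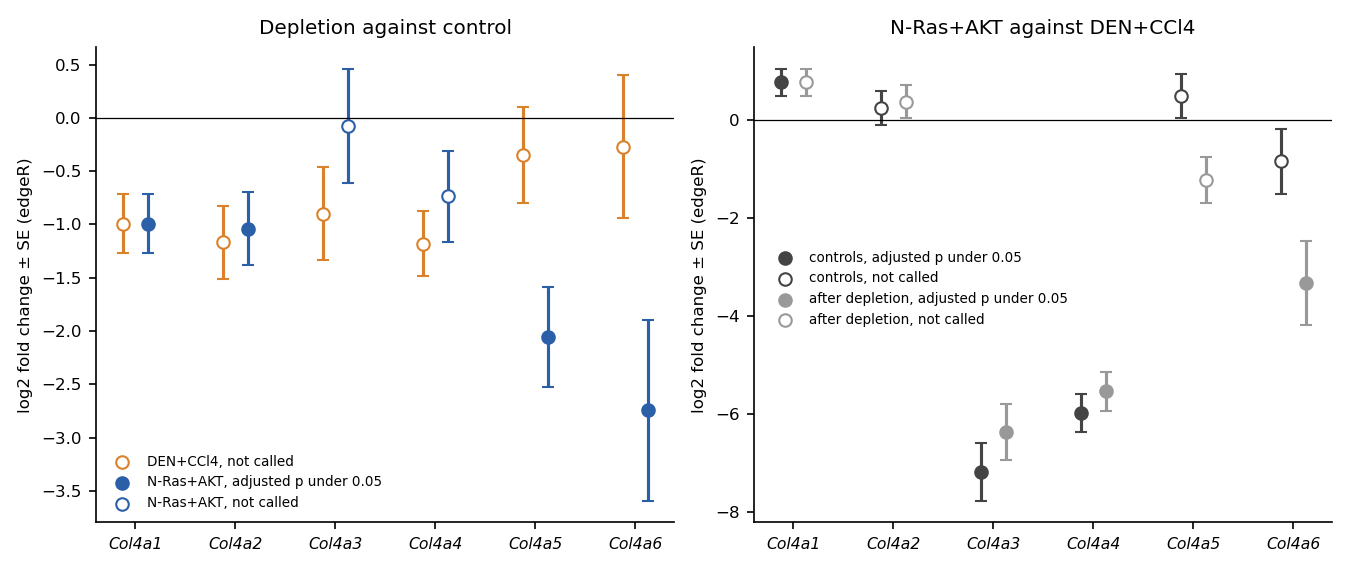
Fitted log2 fold change ± SE (edgeR) of each collagen IV gene, for depletion against control in each model (left) and for N-Ras+AKT against DEN+CCl4 in control and in depletion tumours (right), with filled points where the adjusted p over all genes was under 0.05. Col4a1 and Col4a2 lie at −0.99 to −1.17 in both models, and Col4a5 at −2.06 in N-Ras+AKT and −0.35 in DEN+CCl4.

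The difference of the depletion effects between models was tested in the same fit. It was 0.00 ± 0.38 for Col4a1 and 0.13 ± 0.48 for Col4a2 on the log2 scale, 0.83 ± 0.69 for Col4a3 and 0.44 ± 0.53 for Col4a4. It was −1.71 ± 0.64 for Col4a5 (edgeR adjusted p = 0.108) and −2.48 ± 1.09 for Col4a6 (0.154), with N-Ras+AKT the more negative. No member was called, against 11.6% of genes, while 2 had an unadjusted p under 0.05, for which no share of all genes is given here. DESeq2 called 1 (Col4a5, adjusted p = 0.0325), against 2984 of 17013 genes, a share near that of the family. limma voom called 0, against 1996 of 17013. Col4a5 was called without N-Ras+AKT depletion 11 (0.0443) and Col4a6 without DEN+CCl4 depletion 6 (0.0440). After depletion, the levels of Col4a6 differed between the models (log2 −3.33 ± 0.85, edgeR adjusted p = 0.0108). With Col4a3 and Col4a4 it made 3 of 6 members called lower in N-Ras+AKT, against 15.8% of genes. The Col4a6 groups overlapped, at 2 counts in DEN+CCl4 depletion 6 (0.0696 CPM) and 4 in N-Ras+AKT depletion 11 (0.0881). That Col4a6 call ended without DEN+CCl4 depletion 10 (0.0576), and limma voom did not make it (adjusted p = 0.0612). Col4a5 differed by −1.23 ± 0.46 (edgeR adjusted p = 0.0618).

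Head-to-head partners were compared by how they varied together, as the lower of the Pearson r values over the 6 libraries of each model, on log2 CPM. This is a description with no p, and since each model holds a control and a depletion group, a shared difference between groups alone gives a high r. The value was 0.965 for Col4a1 and Col4a2 (0.965 in DEN+CCl4 and 0.994 in N-Ras+AKT), 0.910 for Col4a3 and Col4a4 (0.945 and 0.910) and 0.694 for Col4a5 and Col4a6 (0.694 and 0.971). Spearman's rho gave 1.0, 0.829 and 0.771. Among 988 head-to-head pairs of protein-coding genes with starts within 1000 bases of each other, the median was −0.213 (quartiles −0.568 and 0.201), and 1, 4 and 50 pairs lay above the collagen IV pairs in that order. Col4a5 and Col4a6, with starts farther apart, are not among the 988.

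By this within-model measure with no library left out, Col4a2 ranked 6 among 16968 genes for likeness to Col4a1, Col4a4 ranked 2 for Col4a3, and Col4a6 ranked 531 for Col4a5. In the other direction the ranks were 17, 3 and 896. Without both libraries that stand apart the values were 0.982, 0.809 and 0.408, and the ranks 1, 74 and 1312 among 16965 genes (1, 36 and 1250 in the other direction). The ratio between partners differed between the models in control tumours. Col4a1 exceeded Col4a2 per kilobase in every library, by a ratio of 1.27 ± 0.05 in DEN+CCl4 controls and 1.82 ± 0.10 in N-Ras+AKT controls (SD, n = 3), with no overlap. After depletion the ratios were 1.53 ± 0.40 and 1.93 ± 0.14, which overlapped. Col4a3 exceeded Col4a4 by 4.77 ± 0.26 and 2.15 ± 0.49 in controls and by 5.83 ± 1.17 and 2.89 ± 0.83 after depletion, without overlap between the models in either. Col4a5 exceeded Col4a6 by 26.4 ± 10.4 and 60.3 ± 13.6 in controls, without overlap, and by 62.8 ± 70.5 and 110.0 ± 8.4 after depletion, with overlap. With the longest transcript as gene length, the control ratio of Col4a1 to Col4a2 was 1.39 and 2.01.

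**Figure D4:**
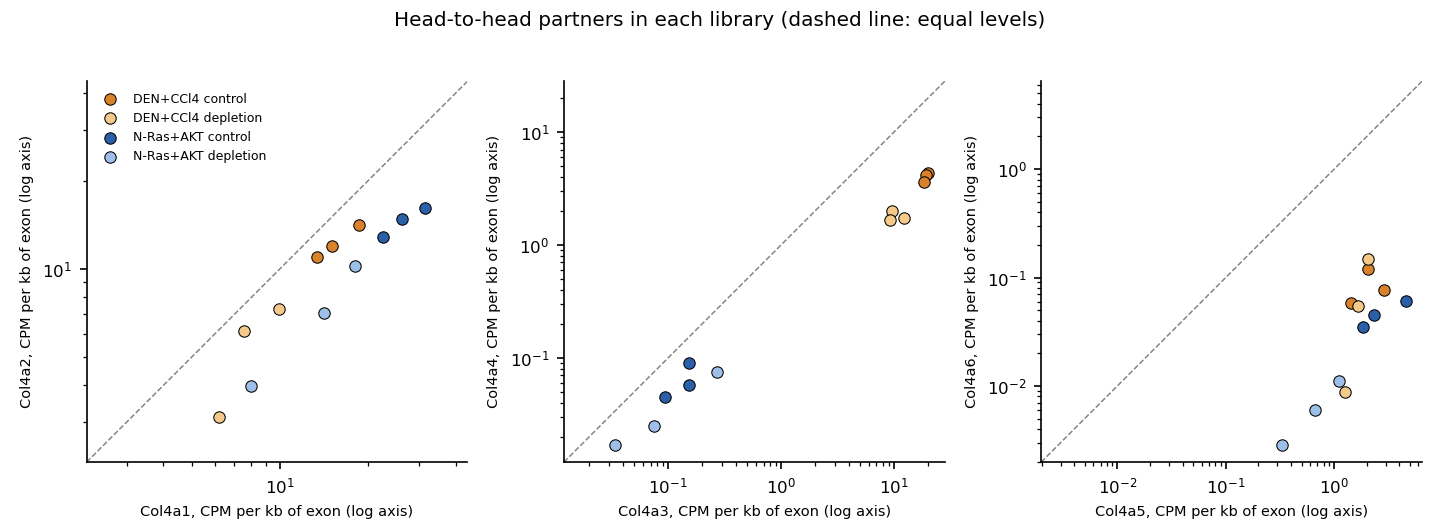
CPM per kilobase of exon of each head-to-head pair in the 12 libraries (both axes log, points coloured by group, dashed line at equal levels). All points lie below the line, and Col4a3 and Col4a4 form separate clusters for the models.

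The other genes most like each member, by the same measure, differed between the pairs. For Col4a1 they were Pxdn (0.986), Grb10, Pdgfb, Tspan6 and Thbs2, and for Col4a2 Grb10 (0.989), Pxdn, Hspg2, Sparc and Aebp1. Pxdn encodes peroxidasin, which makes the sulfilimine cross-link of collagen IV, Hspg2 encodes perlecan, a basement membrane proteoglycan, and Sparc encodes a collagen-binding matrix protein. For Col4a3 they were Calcrl (0.914), Col4a4, Nin, Arrb1 and P3h3, and for Col4a4 they included Lrp8, Col4a3, Tmem200a and Tcaf2. Calcrl encodes a peptide hormone receptor of endothelium, and P3h3 belongs to the collagen prolyl 3-hydroxylase family. For Col4a5 they were Zfp872 (0.962), Bcl2, Ap1s2, Leprot and Dnal1. For Col4a6, at 1 to 38 counts a library, Gimap9 led with 0.980.

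Laminins form the other network of basement membranes. In N-Ras+AKT after depletion, 6 of 11 chains were called lower and 0 higher (median log2 −0.62, against −0.02 over all genes), where 10.8% of all genes tested were called lower and 12.8% higher. With 1 library left out, 4 to 6 chains were lower and 0 to 1 higher. Lama5, the alpha chain of most adult basement membranes, went from 55.9 ± 32.0 to 11.3 ± 7.03 CPM (log2 −2.30, adjusted p = 0.0127) and Lamb2 from 23.3 ± 3.79 to 6.47 ± 2.76 (−1.85, 0.00574). These and Lamc3 stayed called in all 12 fits with 1 library left out, while Lama4 (−1.32) and Lamc1 (−0.59) passed in 8 and 9 of 12 such fits. Lama1, Lama2, Lama3 and Lamb1 were not called, at log2 1.31, −0.41, 0.99 and −0.62.

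Of 20 other basement membrane genes, 4 were called lower and 2 higher (median −0.78), the latter near the 12.8% of all genes called higher. Agrn, which encodes agrin, a proteoglycan, went from 113 ± 23.3 to 39.5 ± 10.4 CPM (log2 −1.51, adjusted p = 0.00334) and passed with each library left out. Egflam, which encodes pikachurin, differed by −2.70 (0.0191) and Fras1 by −1.28 (0.0296). The number lower was 2 without control 3, control 15 or depletion 17, and 7 without DEN+CCl4 depletion 6. Of the higher calls, 1 was made when depletion 6 was left out, and 0 when depletion 17 or controls 3 or 15 were, each alone. Hspg2 (−0.82, adjusted p = 0.0865) and the linker nidogen Nid1 (−0.65, 0.184) were not called.

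Among 21 tested genes for collagen folding, export and cross-linking, 3 were called lower and 0 higher, a share near the 10.8% of all genes called lower. Plod2, a lysyl hydroxylase, went from 13.8 ± 2.44 to 2.59 ± 1.87 CPM (log2 −2.42, adjusted p = 0.00849), and P3h4 and Plod3 differed by −1.53 and −0.50, the latter called in 6 of 12 fits with 1 library left out. Serpinh1, the collagen chaperone HSP47, differed by −0.39 (0.604). Among 15 tested receptors for collagen IV and laminin, 5 were called lower and 1 higher, the latter 0 without control 3, control 15 or depletion 6. Itgb4, the laminin-binding integrin of epithelia, went from 9.75 ± 5.30 to 0.969 ± 0.565 CPM (log2 −3.33, adjusted p = 0.00334), and the laminin receptor Bcam and the collagen receptor Ddr1 differed by −2.18 and −2.16, while the collagen-binding Itga1 (−0.27) and Itgb1 (−0.40) were not called. Among 13 proteases and inhibitors, Timp3, Timp2 and Mmp14 were called lower and Hpse, a heparanase, higher, the last in 8 of 12 fits with 1 library left out. The number lower was 5 without depletion 6, and Mmp2 (−1.75, adjusted p = 0.0623) and Mmp9 (−0.17, 0.868) were not called. Of 12 fibrillar and other collagens tested, 0 were lower, where 10.8% of all genes were, and 1, Col5a3, higher (log2 1.18, adjusted p = 0.0414), and its call ended in 7 of 12 fits with 1 library left out.

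**Figure D5:**
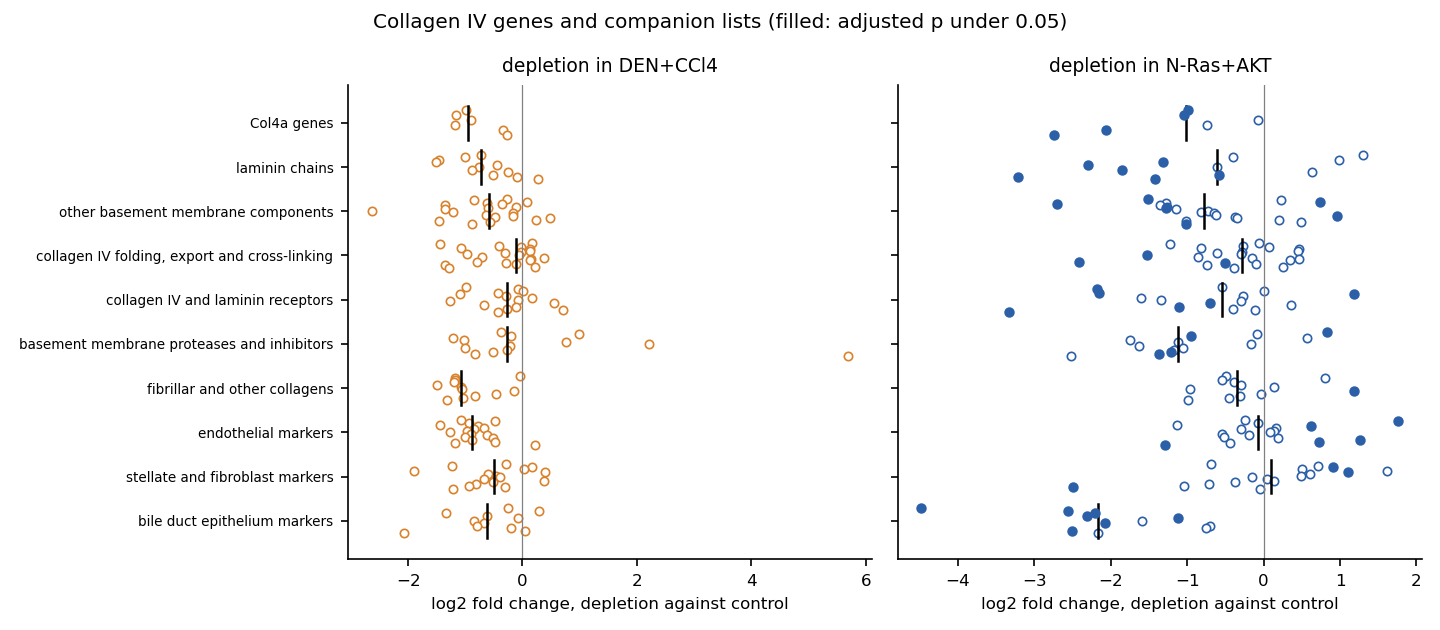
Fitted log2 fold change of each tested gene in each list shown, for depletion against control in DEN+CCl4 (left) and N-Ras+AKT (right), with a line at the list's median and filled points where the adjusted p over all genes was under 0.05. The hepatocyte, leukocyte, kidney and lung, and smooth muscle and Schwann cell lists are not shown. In DEN+CCl4 no point is filled, and in N-Ras+AKT 6 of 11 laminins and 7 of 11 bile duct markers are filled below 0.

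Markers of other cells are set beside these genes. After depletion in N-Ras+AKT, 12.8% of all genes tested were called higher and 10.8% lower. In N-Ras+AKT, bile duct epithelium markers summed to 7165 to 10380 CPM in controls and 327 to 3504 after depletion, most of it Spp1, and 7 of 11 were called lower, with none of the 12 at 0. The largest change was that of Cftr, a chloride channel gene (log2 −4.48). Endothelial markers summed to 173 to 247 and 220 to 254 CPM, with 4 of 17 called higher and 1, Vwf, lower, the latter under the share of all genes. The higher calls numbered 0 without control 15, 1 without control 3 or depletion 17, and 2 without depletion 6, DEN+CCl4 depletion 9 or any of the DEN+CCl4 controls. Stellate and fibroblast markers summed to 468 to 582 and 219 to 440 CPM without overlap, but only 7 of 16 had a log2 fold change below 0 (median 0.09). Rgs5, a pericyte gene that made up a large part of the summed level in controls, went from 277 ± 83.1 to 49.2 ± 27.6 CPM (log2 −2.50, edgeR adjusted p = 0.00606), the 1 lower call. Hand2 and Dcn were called higher, 2 of 16, a share near that of all genes. Hand2 and Dcn were called in 3 and 9 of 12 fits with 1 library left out, and neither without control 3, control 15 or depletion 6. Leukocyte markers summed to 73.7 to 135 and 219 to 327 CPM, with 6 of 10 called higher, led by the B cell gene Cd79a (log2 2.56). The number was 2 without depletion 17 and 3 without depletion 6, control 15 or DEN+CCl4 control 8. Of 12 hepatocyte markers 5 were called higher, led by G6pc, which encodes glucose-6-phosphatase (3.55), and 3 without control 15 or depletion 17. Of the 3 kidney and lung markers tested, Ager (−1.94) and Podxl (−1.38) were called lower, with 1 of them left without control 3, control 15 or depletion 17. Of 6 smooth muscle and Schwann cell markers Smtn was called lower (−0.83), in 3 of 12 fits with 1 library left out. The part of these cells in the collagen IV values was not tested.

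In DEN+CCl4, no member of any of the companion lists was called by edgeR after depletion. The medians were −0.73 for laminins, −0.58 for other basement membrane genes, −0.11 for folding and cross-linking, −0.27 for receptors, −0.28 for proteases and −1.07 for fibrillar collagens, against −0.01 over all genes. At an unadjusted p under 0.05, 5 of 11 laminins were lower, and no share of all genes at that level is given here. DESeq2 called 2 laminins, against 6.27% of all genes in either direction, and limma voom 0, against 71 of 17013. Lama4 (log2 −1.50, edgeR adjusted p = 0.0876) and Hspg2 (−1.22, 0.0922) came nearest of those named here. Endothelial markers summed to 533 to 578 CPM in controls and 233 to 395 after depletion, without overlap (median −0.89). Of 17, edgeR called 0, 13 were lower at an unadjusted p under 0.05, DESeq2 called 11 (against 6.27% of all genes) and limma voom 1 (against 71 of 17013). Stellate and fibroblast markers summed to 420 to 501 and 182 to 395 CPM, also without overlap, and bile duct markers to 239 to 521 and 78.9 to 195. Leukocyte markers summed to 164.6 to 183.5 and 108 to 182 CPM. The part of these cells in the lower Col4a1 to Col4a4 values was not tested.

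Between control tumours, 3 of 11 laminins were called higher and 1 lower in N-Ras+AKT, where 20.8% and 19.8% of all genes were, with Lama1, the lower one, at 1.53 ± 0.927 against 4.74 ± 0.186 CPM (log2 −1.64, adjusted p = 0.0285). That call was made in 7 of 12 fits with 1 library left out (adjusted p up to 0.0822) and ended without control 3 or 15 of N-Ras+AKT or any of the DEN+CCl4 controls. Of 21 genes for collagen folding, export and cross-linking, 4 were called higher and 5 lower (2 lower without DEN+CCl4 control 8 or N-Ras+AKT control 3), shares near those of all genes. Their summed level was 2891 to 2967 CPM in DEN+CCl4 controls and 1835 to 2350 in N-Ras+AKT controls. P4ha2, a prolyl hydroxylase subunit, was at 9.33 ± 2.92 against 0.934 ± 0.0645 CPM (log2 3.32, adjusted p = 6.12e-06), and Plod2, Loxl2 and Colgalt1 were also called higher. Mia3, whose product TANGO1 loads collagen for export, was lower (−1.24), as were Mia2, P4hb, Plod1 and Ppib (−0.36 to −0.59). Of 20 other basement membrane genes, 4 were called higher and 5 lower (3 lower without N-Ras+AKT control 3), also near the shares of all genes. Egflam (log2 4.10) and Npnt (4.03), which encodes nephronectin, were higher and Smoc2 (−2.79) lower. Bile duct markers were called higher in 8 of 11, with a sum of 239 to 521 CPM in DEN+CCl4 controls and 7165 to 10380 in N-Ras+AKT controls. Among 12 fibrillar and other collagens edgeR called 0 in this comparison, while 2 had an unadjusted p under 0.05 and DESeq2 and limma voom called 1 each. Over all genes, in either direction, DESeq2 called 7329 of 17013 and limma voom 6961.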

How the data were processed

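Read counts per gene were the authors' deposited values, whole numbers for 55335 Ensembl genes in 12 bulk RNA-seq libraries of frozen tumour tissue (poly-A selected, KAPA mRNA HyperPrep, per the labels' protocols). Per the submitters' processing notes the tools included RSEM 1.3.1 and STAR 2.7.3 and the build was mm10, while strand setting, annotation release and filters are not given in the sources used. If strand was not used, reads from the 22 bases where Col4a1 and Col4a2 overlap cannot be told apart. Libraries held 31306617 to 48055812 counts. The series' 6 single-cell samples were not used here.

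Gene symbols were matched to GENCODE M21 (181 IDs, with 0.00642% of counts, did not match). edgeR 4.0.16 (R 4.3.3) was run with TMM scaling, filterByExpr and 1 robust quasi-likelihood fit of 4 group means. P-values were two-sided and adjusted over all 17013 genes by Benjamini-Hochberg at 0.05, and "called" means under that value. A standard error is the log2 fold change over the root of F. DESeq2 1.42.0 and limma 3.58.1 (voom) were alternatives, with other size factors, no filter, single libraries left out and only the libraries compared.

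Levels between genes were compared as CPM per kilobase of the union of exons. Log2 CPM used a prior count of 2. The members, the 13 companion lists (184 genes) and the decision to leave out 2 libraries together were chosen with earlier results of these data known. Named genes are the 6 members, Prom1, the 5 genes most like each member, fixed defining genes of the lists, and called list genes among the 3 largest log2 fold changes of a list in a depletion or control comparison; of the latter, some are left unnamed, mostly in the marker lists. Some genes that the rule names are not reported here. Lamc3, Hpse, Nphs1, Colgalt1, Mia2, Mia3, P4hb, Plod1, Ppib and the kidney and lung markers at 0 fall outside that rule and were named after their values were seen.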

Additional observations from a re-analysis of the deposited data

How the results depend on the processing

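Of 533 alternative log2 fold changes of the 6 genes, 461 kept direction and side of the threshold, 31 lost a call, 18 gained one and 23 changed sign. Col4a3 and Col4a4 kept their calls between models throughout. Counts of members called moved as follows. For depletion in DEN+CCl4 (0), DESeq2 gave 3, limma voom 1, the 6 libraries compared alone 1, and leaving out 1 library 0 to 1. For depletion in N-Ras+AKT (4), no filter gave 2, the 6 libraries alone 2, limma voom 3, and leaving out 1 library 1 to 5. Calls over all genes moved as well in that comparison, which bears on the list counts too. They were 4027 of 17013 with all libraries and 2257 of 17447 without control 3. Without control 15 they were 2225 of 17460, and without DEN+CCl4 depletion 6 they were 4611 of 17569. For the difference of depletion effects (0), DESeq2 gave 1 and leaving out 1 library 0 to 1. For the models after depletion (3), DESeq2 gave 5, limma voom 2, the 6 libraries alone 2, leaving out both that stand apart 4 and leaving out 1 library 3 to 4. For control tumours (3), no filter and limma voom gave 2, as did leaving out 1 library at the lowest, with 3 at the highest. Without both libraries that stand apart, partner likeness was 0.809 for Col4a3 and Col4a4 and 0.408 for Col4a5 and Col4a6. With the longest transcript as gene length, shares of the family moved by less than their spread, while 5 of 12 partner ratios moved by more: Col4a1 to Col4a2 became 1.39 in DEN+CCl4 controls and 2.01 and 2.12 in N-Ras+AKT controls and depletion, Col4a3 to Col4a4 became 5.30 in DEN+CCl4 controls, and Col4a5 to Col4a6 became 94.2 in N-Ras+AKT depletion. The 7 values that changed sign were not called with all libraries. Leaving out 1 library gave −1.3836 to 0.2369 for Col4a6 in DEN+CCl4 depletion, −1.2641 to 0.3762 for Col4a3 in N-Ras+AKT depletion and −0.0100 to 0.7578 for Col4a5 between control tumours, and leaving out both that stand apart gave 0.2424 for Col4a6 and 0.3782 for Col4a3. For the difference of effects, leaving out 1 library gave −0.2706 to 0.2498 for Col4a1, −0.2324 to 0.3970 for Col4a2, −0.3642 to 1.2596 for Col4a3 and −0.4114 to 0.7775 for Col4a4, and Col4a1 was −0.0075 with DESeq2 size factors and with DESeq2, and −0.0508 with limma voom. The cause of these moves was not tested. No paired analysis was possible because the groups compared share fewer than 2 replicate numbers. With 3 libraries a group and 1 to 38 counts a library, Col4a6 is the member whose values depth limits most.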
